A study of Mus musculus with 4 samples.

Results

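The lipid droplet coat and seipin genes studied here were Plin2, Plin3, Plin4, Plin5, Cidec, Fitm1, Fitm2 and Bscl2, which are 8 of the 22180 genes measured on the arrays. They were chosen by gene symbol: a gene was represented by the probe set that carried its symbol alone and, where several did, by the one with the highest mean over the 4 arrays. Of the 8 genes, 7 had 1 such probe set and Fitm1 had 2. The RNA was that of epigonadal white fat, a visceral depot that lies along the male reproductive organs, taken from male mice after a fast, and each of 4 genotypes had 1 array. LDKO mice carried floxed Irs1 and Irs2, the insulin receptor substrates, together with a Cre recombinase under the albumin promoter, and LTKO mice carried floxed Foxo1 in addition, with the same Cre. Without Cre, the Irs1/2-flox control carried the floxed alleles of LDKO, and the Irs1/2:FoxO1-flox control those of LTKO. All 4 groups therefore carried floxed Irs1 and Irs2, and the albumin promoter drives Cre in hepatocytes, so the deletions are directed to liver and not to the fat that was measured. Mice with Cre were 4 months of age, no age is given for the controls, and nothing in the labels tells 1 mouse per array from a pool.

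Lipid droplets store triglyceride inside a single layer of phospholipid that carries a coat of proteins. Droplets form in the membrane of the endoplasmic reticulum, where seipin and the fat storage-inducing transmembrane proteins act, and they are then covered by perilipins, which control how lipases reach the lipid. In white adipocytes, proteins of the CIDE family let droplets exchange lipid and merge into the single large droplet of the cell, and inherited loss of seipin or of CIDEC causes lipodystrophy in people. Several perilipin genes are known targets of the PPAR nuclear receptors, and fasting, the state of these mice, is a state in which fat releases fatty acids.

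None of the 8 genes was 2-fold apart in any comparison between arrays. The LDKO array held the lowest value of Plin2, Plin4, Plin5, Cidec and Fitm2, as it did for 37.4% of the genes counted below. The gaps to the next array were between 0.10 and 0.26 on the log2 scale, on which 1 unit is 2-fold. Plin3 and Bscl2 followed another order, with their lowest value in the Irs1/2-flox control and their highest in the Irs1/2:FoxO1-flox control. With 1 array per group there is no replicate error to set a difference against and nothing was tested, so the count of arrays limits how precise each value is. Of the 11958 genes whose highest array reached the median gene (a log2 signal of 5.15), 37.4% had their lowest value in LDKO, which is the share against which 5 of 8 stands. The Irs1/2-flox control held the lowest value of 23.7% of genes and of 2 of the 8, and LTKO that of 20.1% and of 1, Fitm1. The highest value was in LTKO for 3 of the 8 (Plin4, Plin5 and Cidec), against 21.8% of genes, and in the Irs1/2:FoxO1-flox control for 3 (Plin3, Fitm2 and Bscl2), against 31.6%.

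The arrays were alike in scale, with medians between 4.68 and 4.73 and a Pearson's r across genes between 0.986 and 0.991 for pairs of arrays. Irs2 lay between 7.62 and 7.96, Foxo1 between 8.02 and 8.37 and Irs1 between 6.96 and 7.86, which does not check a deletion made in liver. All 13 measured adipocyte markers, among them Adipoq, Fabp4 and Pparg, were above the median gene in all 4 arrays, as the labelled tissue would have them. The LTKO array stood apart by marker genes of other organs. The mean log2 signal of 12 hepatocyte markers was 6.63 in LTKO and between 5.13 and 5.23 in the other arrays. That of 14 testis and epididymis markers was 5.84 in LTKO and between 4.18 and 4.20 elsewhere. Skeletal muscle markers (17 genes) averaged 5.84 in the Irs1/2-flox control and between 5.04 and 5.20 in the other arrays, and mesothelial markers (11 genes) 7.46 against 6.81 to 6.96. In whole tissue, fewer cells of a type and less RNA per cell cannot be told apart.

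**Figure D1:**
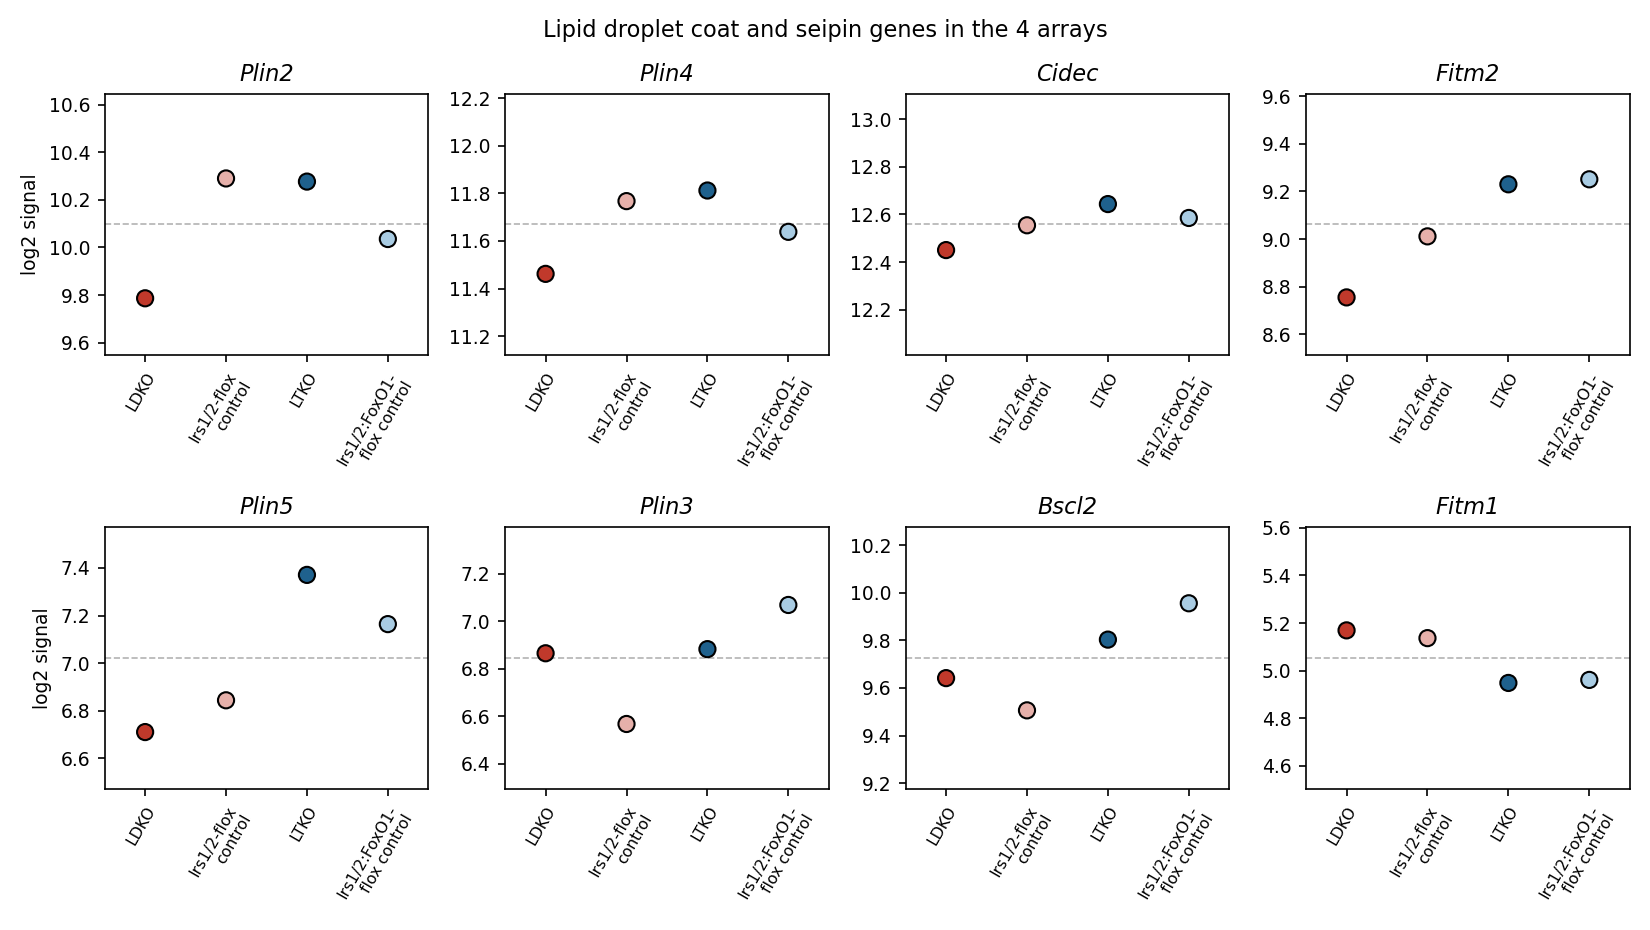
Log2 signal of each of the 8 genes (vertical axis, 1 panel per gene, all panels spanning the same number of log2 units) in the 4 arrays; each point is 1 array and the dashed line is the mean of the 4. Plin2, Plin4, Cidec, Fitm2 and Plin5 are lowest in LDKO, and Plin3 and Bscl2 are lowest in the Irs1/2-flox control.

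Plin2, the perilipin that coats droplets in most cell types, had the largest LDKO difference of the 8 genes. Its log2 signal was 9.79 in LDKO and 10.29 in the Irs1/2-flox control, and 10.28 in LTKO and 10.04 in the Irs1/2:FoxO1-flox control. LDKO was thus the lowest array, the Irs1/2-flox control and LTKO were nearly level, and the other control lay between. The difference was −0.50 for LDKO minus its control, a size reached by 10% of the 11533 genes past the filter in that comparison, and 0.24 for LTKO minus its control. Set against the Irs1/2:FoxO1-flox control, the LDKO difference was −0.25, and LTKO differed by −0.01 from the Irs1/2-flox control. LTKO against LDKO directly gave 0.49.

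Plin4, a perilipin made mainly by adipocytes that covers small, newly formed droplets, showed nearly the same order. It measured 11.46 in LDKO and 11.77 in the Irs1/2-flox control, and 11.81 in LTKO and 11.64 in the Irs1/2:FoxO1-flox control. The differences were −0.31 for LDKO and 0.17 for LTKO, each against its own control, and 0.35 for LTKO minus LDKO. Once each gene was centred on its own mean over the 4 arrays, Plin2 and Plin4 differed by a root mean square of 0.074 log2 units, the smallest distance between 2 of the 8 genes except for the 0.063 between Plin3 and Bscl2.

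Plin5, the perilipin of oxidative tissues that tethers droplets to mitochondria, had the widest range of the 8 genes, 0.66. Its signal was 6.71 in LDKO and 6.84 in the Irs1/2-flox control, and 7.37 in LTKO and 7.16 in the Irs1/2:FoxO1-flox control. Both arrays of the Irs1/2:FoxO1-flox line were above both arrays of the Irs1/2-flox line, as they also were for Plin3, Cidec, Fitm2 and Bscl2. Each Cre line therefore lay close to its own control, at −0.13 for LDKO and 0.21 for LTKO, while the control of the LTKO line was above that of the LDKO line by 0.32. LTKO minus LDKO was 0.66, which is 1.58-fold, and 6.04% of 11660 genes were at least that far apart in either direction. Plin5 was the only one of the 8 genes 1.5-fold apart there, against 7.98% of all genes, and it was just under that size, at 0.58, once a loess curve was removed. The array with the highest Plin5 was also the one with the highest hepatocyte, testis and epididymis markers, given above, and Plin5 is known to be expressed in liver as well. The part of those tissues in its level was not tested. LTKO was above the Irs1/2:FoxO1-flox control by 0.21 for Plin5 and by 2.89 for albumin (Alb).

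Plin3, a perilipin held in the cytosol that moves onto nascent droplets, ran in another order from Plin2 and Plin4. It was 6.86 in LDKO and 6.57 in the Irs1/2-flox control, and 6.88 in LTKO and 7.07 in the Irs1/2:FoxO1-flox control. The 2 Cre lines were level, 0.02 apart, and the controls were the extremes. The LDKO difference of 0.30 and the LTKO difference of −0.19 had opposite signs against their own controls, and both turned against the other control, to −0.20 and 0.31. The 0.50 between the 2 controls was larger than either, and 7.37% of 11432 genes were at least that far apart.

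The promoters of Plin2 and Plin4, of Plin3 and Bscl2, the 2 pairs with the closest patterns, and of Plin5, the neighbour of Plin4 with the widest range, are shown to let the upstream sequences be compared. Each runs from 250 bases before to 50 after the outermost start listed by RefSeq for GRCm38.p6: chr4:86670010-86670309 for Plin2, chr17:56109733-56110032 for Plin4, chr17:56117499-56117798 for Plin5, chr17:56290462-56290761 for Plin3, all on the minus strand, and chr19:8837217-8837516 on the plus strand for Bscl2. Capitals mark every match to the motifs named after the sequences, on either strand.
Plin2: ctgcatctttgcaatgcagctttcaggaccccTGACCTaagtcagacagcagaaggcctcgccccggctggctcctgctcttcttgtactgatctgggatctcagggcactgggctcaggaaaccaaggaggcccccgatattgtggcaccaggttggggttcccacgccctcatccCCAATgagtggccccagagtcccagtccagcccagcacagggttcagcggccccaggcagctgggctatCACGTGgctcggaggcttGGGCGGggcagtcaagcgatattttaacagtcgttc
Plin4: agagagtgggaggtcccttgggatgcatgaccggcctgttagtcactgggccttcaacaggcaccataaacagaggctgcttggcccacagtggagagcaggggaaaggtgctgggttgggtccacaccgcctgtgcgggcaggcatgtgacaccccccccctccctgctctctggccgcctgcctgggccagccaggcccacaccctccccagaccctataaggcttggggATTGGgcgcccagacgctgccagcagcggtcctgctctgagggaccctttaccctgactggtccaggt
Plin5: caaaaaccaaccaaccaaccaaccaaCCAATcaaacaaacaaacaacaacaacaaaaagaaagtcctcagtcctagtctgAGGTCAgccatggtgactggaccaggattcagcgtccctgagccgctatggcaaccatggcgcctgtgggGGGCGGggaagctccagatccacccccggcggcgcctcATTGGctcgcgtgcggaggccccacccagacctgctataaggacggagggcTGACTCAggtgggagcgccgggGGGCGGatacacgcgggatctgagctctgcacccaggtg
Plin3: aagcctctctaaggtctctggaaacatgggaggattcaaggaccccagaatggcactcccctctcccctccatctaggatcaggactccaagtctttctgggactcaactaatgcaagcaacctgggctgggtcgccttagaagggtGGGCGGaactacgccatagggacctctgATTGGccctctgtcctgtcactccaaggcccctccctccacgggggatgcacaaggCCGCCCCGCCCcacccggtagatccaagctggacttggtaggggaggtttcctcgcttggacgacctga
Bscl2: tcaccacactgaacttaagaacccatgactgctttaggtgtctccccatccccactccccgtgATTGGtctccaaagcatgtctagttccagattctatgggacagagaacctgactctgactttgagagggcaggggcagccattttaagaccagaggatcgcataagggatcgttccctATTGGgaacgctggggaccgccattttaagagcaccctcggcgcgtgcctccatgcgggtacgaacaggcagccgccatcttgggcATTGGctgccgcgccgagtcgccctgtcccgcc

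The motifs searched on both strands in the windows of all 8 genes were the nuclear receptor half-site AGGTCA, the PPAR response element made of 2 copies of AGGTCA with any 1 base between them, the E-box CACGTG, the forkhead motif GTAAACA, the AP-1 motif TGACTCA, the CCAAT box CCAAT, the TATA box TATAAA and the GC box GGGCGG. In the window of the outermost start, the half-site was found in Plin2, on the minus strand at −218 from the start, and in Plin5, on the plus strand at −170, against 16.3% of 32851 RefSeq windows of the same length. The E-box was in Plin2, across the start at −4, against 7.15% of windows, and the AP-1 motif was in Plin5, at −11, against 5.2%. CCAAT was in 5 of the 8 (Plin2, Plin3, Plin4, Plin5 and Bscl2, which had 3 matches), against 37.4%, and the GC box in 4 (Plin2, Plin3, Plin5 and Fitm2), against 35.7%. The complete PPAR element (0.0396% of windows), the forkhead motif (3.65%) and the TATA box (13.6%) were in none of the 8 outermost windows. Plin5 and Cidec have a second start and Bscl2 has 3, and those windows held further matches. An AP-1 motif was at −96 of the second Cidec start, and a half-site and a GC box, at −53, were at the second Plin5 start. Another GC box there, at −239, is the same site as that at 12 of the outermost Plin5 start, because the 2 windows overlap. Bscl2 had a half-site at −202 of its second start and a GC box at 5 of its remaining start. The half-site is contained in the PPAR element, and 2 of the 3 GC boxes of Plin3 overlap each other. At the outermost starts, Plin2 and Plin4 shared CCAAT, and Plin3 and Bscl2 shared CCAAT as well. Over all starts, Bscl2 and Plin3 also shared the GC box. Such sharing was not limited to close patterns, since CCAAT was in all 5 genes shown. Plin2 and Plin3, whose patterns differed by a root mean square of 0.33, shared CCAAT and the GC box at their outermost starts. A match describes letters in a window and is not a binding site.

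Cidec, the CIDE protein at droplet contacts that makes the droplet of white fat unilocular, was the steadiest of the genes by range. It was 12.45 in LDKO and 12.55 in the Irs1/2-flox control, and 12.64 in LTKO and 12.59 in the Irs1/2:FoxO1-flox control. LDKO was again the lowest array and LTKO the highest, within a range of 0.19. Its differences were −0.10 for LDKO and 0.06 for LTKO, and 69.2% and 75.8% of genes were at least as far apart in those comparisons. These signals lay near the top of the scale, since the brightest probe set of an array reached 13.28 to 13.41, and bright probe sets can understate a change.

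Among the genes of droplet formation, Fitm2, the widely expressed member of the fat storage-inducing pair, had a log2 signal of 8.75 in LDKO and 9.01 in the Irs1/2-flox control, and of 9.23 in LTKO and 9.25 in the Irs1/2:FoxO1-flox control. LTKO and its control were level, and LDKO was the lowest. The LDKO difference was −0.26 against its own control and −0.50 against the Irs1/2:FoxO1-flox control, a size reached by 11.2% of 11489 genes there. LTKO minus LDKO was 0.48.

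Fitm1, the paralogue found mainly in muscle, was close to the median gene and its 2 probe sets did not give the same order. The brighter one measured 5.17 in LDKO and 5.14 in the Irs1/2-flox control, and 4.95 in LTKO and 4.96 in the Irs1/2:FoxO1-flox control. The other was higher by 0.40 in LDKO than in the Irs1/2-flox control, where it measured 4.60, and was 4.64 in LTKO and 4.67 in the Irs1/2:FoxO1-flox control. Both were highest in LDKO, but the brighter one differed there by 0.03. Muscle markers were the highest on average in the Irs1/2-flox control, and 11 of the 12 past the filter were lower in LDKO than in that control. The fast myosin heavy chain Myh4, for example, was 4.95 in LDKO and 7.57 in that control. Myh4, Ttn and Atp2a1 were past the filter only through that control, so the filter favoured markers lower in LDKO. Of all genes past the filter, 43.2% were higher in LDKO than in that control. The 1 of the 12 that was higher in LDKO was the fast myosin light chain Myl1, at 7.82 against 6.86. Myl1 was 6.16 to 6.31 in the other arrays. The part of muscle RNA in Fitm1 was not tested. Because its signal was low, Fitm1 passed the filter in LDKO against its control but not in LTKO against its own.

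Bscl2 encodes seipin, the protein at the junction of the endoplasmic reticulum and the growing droplet. Its signal was 9.64 in LDKO and 9.51 in the Irs1/2-flox control, and 9.80 in LTKO and 9.96 in the Irs1/2:FoxO1-flox control. The controls were again the extremes, and the Cre lines lay between them, 0.16 apart. Seipin differed by 0.14 in LDKO and by −0.15 in LTKO from the control of the same line, and both signs turned against the other control, to −0.31 and 0.30. The control difference of 0.45 was the larger value here too, and 9.5% of genes were at least as far apart.

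**Figure D2:**
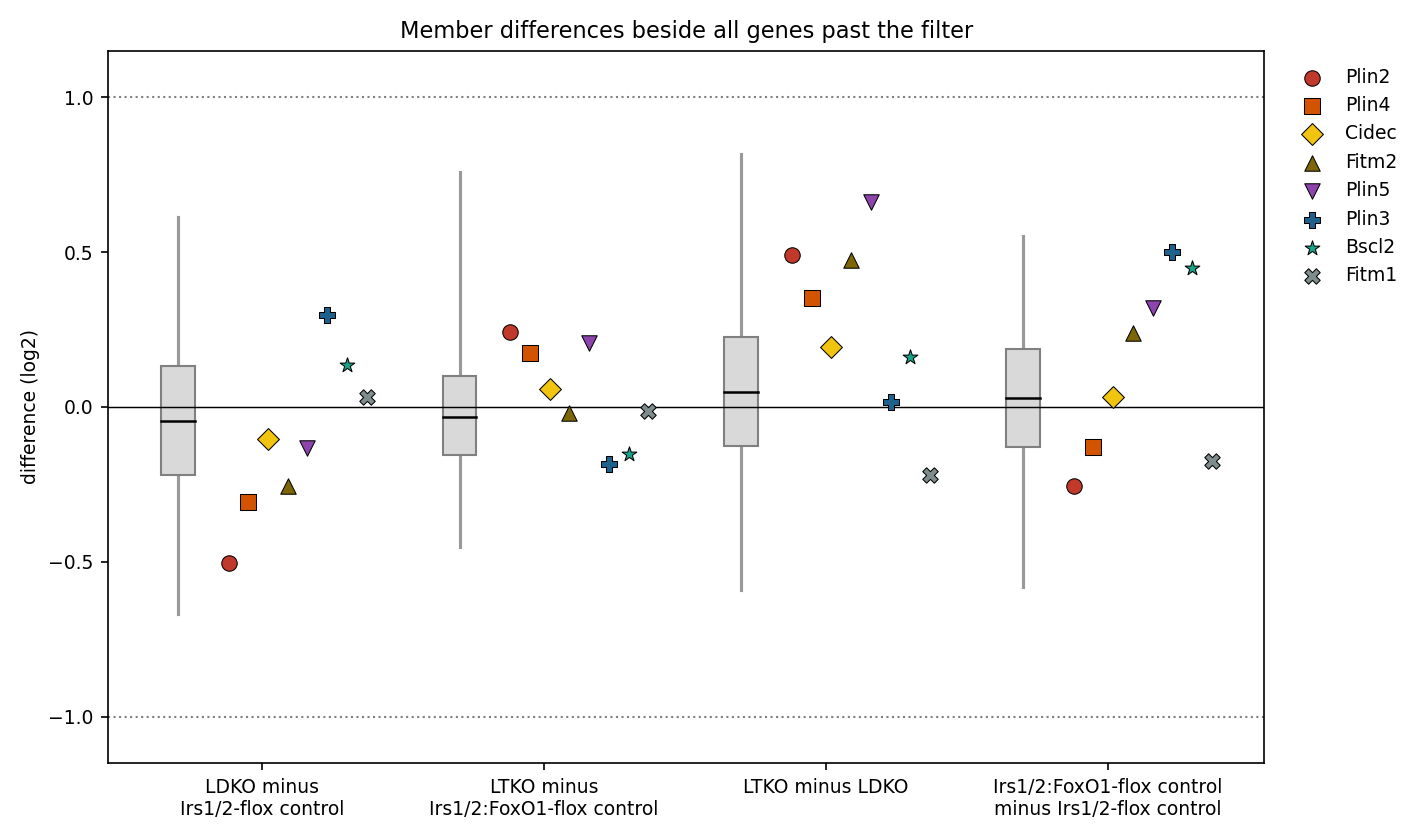
Log2 differences (vertical axis) of the 8 genes in 4 comparisons, 1 symbol per gene; the grey box spans the middle 50% of all genes past the filter, the grey line the middle 95%, and the black bar is their median. All 8 genes lie between the dotted lines at 2-fold in every comparison, and Plin5 at 0.66 in LTKO minus LDKO is the farthest from 0.

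Counted together, 0 of the 8 genes were 2-fold apart in LDKO against its control, where 1.2% of 11533 genes were. The same count was 0 of the 7 that passed the filter in LTKO against its control, with 1.78% of genes, 0 of 7 between the controls, with 0.77%, and 0 of 8 in LTKO against LDKO, with 2.11%. Shares this small put 0 of 8 near the background. Each line against the control of the other line also gave a count of 0, with 1.31% of genes in LDKO and 1.24% in LTKO, and so did the gap between the LTKO and LDKO differences, with 4.01%. At 1.5-fold the count stayed at 0 in LDKO (6.74% of genes), in LTKO (4.41%) and between the controls (4.55%), and was 1 of 8, Plin2, for that gap, with 13% of genes.

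The median over the 8 genes was −0.12 in LDKO, with 3 higher and 5 lower, beside a median of −0.05 over all genes past the filter, of which 43.2% were higher. In LTKO it was 0.02, with 4 higher and 4 lower, beside −0.03 and 42.8% higher, and 0.06 over the 7 past the filter. LTKO minus LDKO had a median of 0.27, with 7 of 8 genes higher and Fitm1 lower, beside 0.05 over all genes, of which 57.4% were higher. That comparison also holds any difference between the floxed lines, for which the controls gave a median of 0.14, with 5 genes higher and 3 lower, beside 0.03 and 55.5% higher. That median was 0.24 over the 7 genes past the filter, without Fitm1, and 0.03 over the 7 without Plin3, the gene with the largest difference. The counts of higher genes in LDKO, in LTKO and between the controls lie near the shares of all genes. Plin2, Plin4, Plin5 and Cidec had a negative LDKO difference and a positive LTKO difference, a combination seen in 24.8% of genes, and Plin3, Bscl2 and Fitm1 were higher in LDKO and lower in LTKO, as in 25% of genes.

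The order of arrays was also read under other settings and without each of the 2 arrays that stood apart. Values normalized by quantiles again gave the same count of 5, with 32.6% of all genes, as did the mean of all probe sets of a gene, with 36.9%. Without LTKO the same 5 genes were lowest in LDKO, with 44.1% of all genes. Without the Irs1/2-flox control, Plin3 and Bscl2 joined them, which made 7 of 8, with 46% of all genes. A gene lowest in LDKO stays lowest there when another array is left out. The count without LTKO or without that control could therefore not fall, and it is no check of the order. Relative to the Irs1/2:FoxO1-flox control alone, Fitm1 was the 1 gene higher in LDKO.

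Other proteins of the droplet surface gave both directions in LDKO. Of 17 past the filter over the 4 arrays, 6 had their lowest value in LDKO, a share near the 37.4% of all genes. Hilpda, an inhibitor of the adipose triglyceride lipase, was one of them, at 5.93 in LDKO and 6.45 in its control, and 6.47 in LTKO and 6.50 in its control. Of 21 on the list, 19 were measured and 17 passed the filter in LDKO against its control. Of these, 2 were 2-fold higher and 0 lower, with 0.572% and 0.624% of all genes, and the median was 0.16. They were the droplet lipid-remodelling protein Pnpla3, at 8.45 in LDKO and 6.53 in its control, and Cidea, a CIDE protein like Cidec, at 7.43 in LDKO and 5.97 in its control. Both were also 2-fold higher in the Irs1/2:FoxO1-flox control than in the Irs1/2-flox control, by 1.11 and 1.25, so that the Irs1/2-flox control was the low array for both. Against the Irs1/2:FoxO1-flox control, LDKO was still higher by 0.81 for Pnpla3 and by 0.21 for Cidea. Plin1, the main perilipin of white adipocytes, had 10.05 in LDKO and 9.56 in its control, and 9.92 in LTKO and 10.08 in its control. Its LDKO difference of 0.49 was opposite in sign to the −0.50 of Plin2, and its low array, the Irs1/2-flox control, was that of Plin3 and Bscl2.

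In LTKO against its control, 17 genes of that list passed the filter and 0 were 2-fold apart, with a median of −0.05. The largest difference was that of G0s2, an inhibitor of the adipose triglyceride lipase, at 8.28 in LTKO and 7.67 in its control by the brighter of its 2 probe sets.

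Genes that supply droplets at the endoplasmic reticulum were split in LDKO. Of 22 on the list, 19 were measured and 17 passed. Agpat2, an acyltransferase that, like seipin, is lost in congenital lipodystrophy, was 2-fold higher, at 9.77 in LDKO and 8.76 in its control, and 0 were 2-fold lower. The diacylglycerol acyltransferases Dgat1 and Dgat2, which make triglyceride, differed by 0.83 and 0.82, while the acyl-CoA synthetase Acsl4 differed by −0.81. The Irs1/2-flox control was the low array for Agpat2, Dgat1 and Dgat2: against the Irs1/2:FoxO1-flox control the LDKO differences were 0.18, 0.04 and −0.04, so that Agpat2 was no longer 2-fold apart. The median of the list was 0.05. In LTKO 0 of 17 were 2-fold apart, with a median of −0.06. Of 13 lipodystrophy genes past the filter, a list that holds Bscl2, Cidec, Plin1 and Agpat2, Agpat2 was again the 1 gene 2-fold apart in LDKO, and 0 were in LTKO. None of the 13 genes of lipophagy and droplet contacts was 2-fold apart in either comparison.

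**Figure D3:**
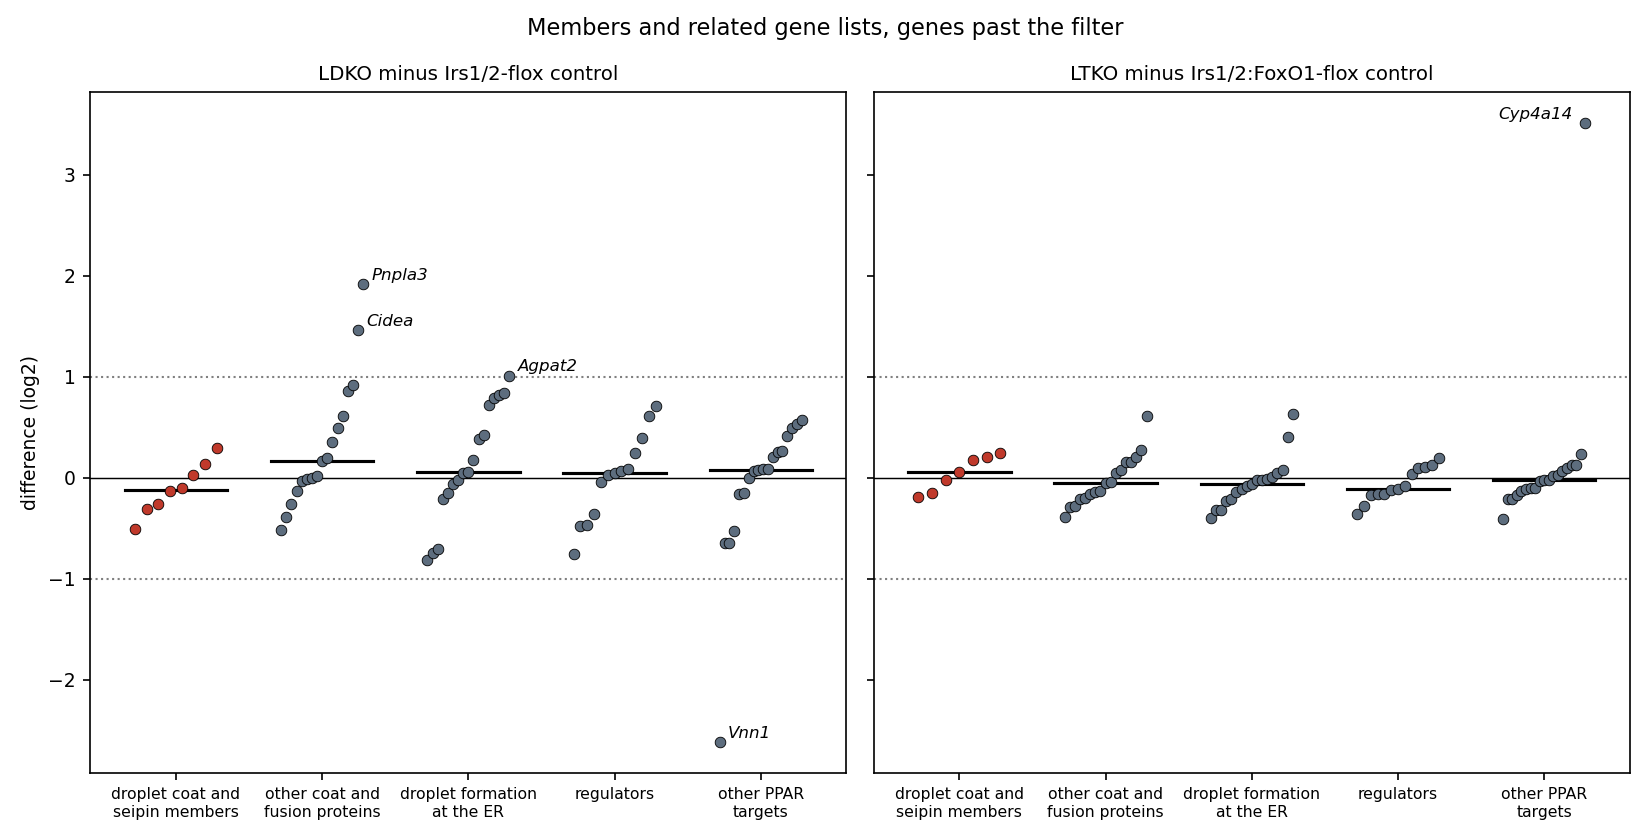
Log2 differences (vertical axis) of LDKO (left) and LTKO (right), each minus its own control, for the 8 genes in red (without Fitm1 in LTKO, where it did not pass the filter) and 4 related lists in grey; each point is 1 gene past the filter, the black bar is the median of a list and dotted lines mark 2-fold. The 8 genes span −0.50 to 0.30 in LDKO, where Pnpla3, Cidea, Agpat2 and Vnn1 are past 2-fold.

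Transcription factors known to act on droplet coat genes were compared next. Of 14 on the list, 13 passed the filter, and 0 were 2-fold apart in LDKO or in LTKO against the control of the line, with medians of 0.05 and −0.11. Pparg, the nuclear receptor of adipocyte differentiation, was 10.18 in LDKO and 10.14 in its control, and 10.04 in LTKO and 10.40 in its control. Its low array was LTKO, not LDKO. Of the 13, 4 were lowest in LDKO, near the 37.4% of all genes: Ppard, Rxra, Mlxipl and Ppargc1a. Mlxipl, the carbohydrate-responsive factor ChREBP, had the largest LDKO difference of the list, with 6.74 in LDKO, 7.52 in LTKO and 7.80 in the Irs1/2:FoxO1-flox control. The LDKO difference was −0.76 against its own control, and −1.05, past 2-fold, against the Irs1/2:FoxO1-flox control. Rxra, the partner receptor of the PPARs, was 7.13 in LDKO and 7.60 in its control, and 7.54 in LTKO and 7.62 in its control. Ppargc1a, the coactivator of oxidative metabolism, was lowest in LDKO like Plin5, at 6.01 in LDKO and 6.48 in its control, and 7.07 in LTKO and 6.88 in its control. Its 1.06 for LTKO minus LDKO was the 1 difference of 2-fold on that list in that comparison.

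Other PPAR target genes gave both directions. Of 26 on the list, 19 were measured, and 18 passed in LDKO against its control, with 1 lower by 2-fold, 0 higher and a median of 0.08. The gene was Vnn1, a pantetheinase, at 7.34 in LDKO and 9.96 in its control. Pdk4, the kinase that limits pyruvate use in fasting, was 10.62 in LDKO and 11.26 in its control, and 11.48 in LTKO and 11.39 in its control. The mitochondrial carrier Ucp3 was 6.53 in LDKO and 7.18 in its control, and 7.51 in LTKO and 7.61 in its control. Vnn1, Pdk4 and Ucp3 were thus lowest in LDKO, as were 7 of the 19 in all, near the share of all genes. The fatty acid oxidation gene Hadha was higher by 0.57 in LDKO than in its control. Against the Irs1/2:FoxO1-flox control its LDKO difference was 0.12, and its low array was the Irs1/2-flox control. In LTKO against its control, 1 of 19 was 2-fold apart, Cyp4a14, a gene strongly expressed in liver, at 6.67 in LTKO and 3.16 in its control, with a list median of −0.02.

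Genes with the nearest pattern over the 4 arrays were sought for Plin2, Plin3 and Plin5, whose range reached 0.5. Nearest to Plin2 were Galnt15, Shmt2 and Mitf, with a root mean square difference of 0.010, 0.024 and 0.025 between centred values. Galnt15, for example, was 7.18 in LDKO and 7.66 in the Irs1/2-flox control, and 7.66 in LTKO and 7.43 in the Irs1/2:FoxO1-flox control. Cox18, Ddt and Pigq were nearest to Plin3 (0.019, 0.021 and 0.022), and Zfp654, Syt12 and Unc119 to Plin5 (0.027, 0.029 and 0.034). With 4 points per gene, many of the 11958 genes lie close to any pattern.

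**Figure D4:**
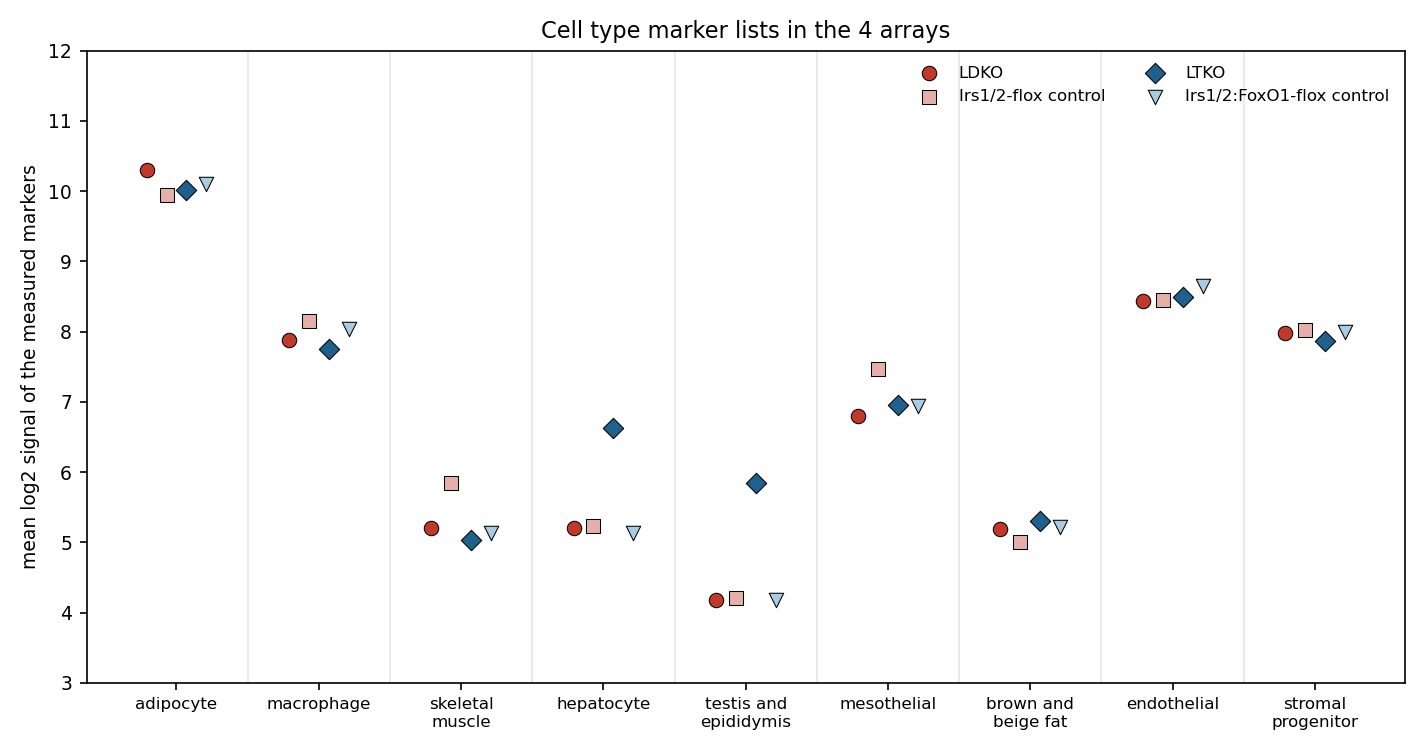
Mean log2 signal of the measured markers of 9 cell types or tissues (vertical axis) in the 4 arrays, 1 symbol per array, with the axis starting at 3. Hepatocyte and testis and epididymis markers are highest in LTKO, skeletal muscle and mesothelial markers in the Irs1/2-flox control, and adipocyte markers in LDKO.

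Marker levels were read beside the 8 genes. Adipocyte markers averaged 10.30 in LDKO and 9.94 in its control, and 10.02 in LTKO and 10.10 in its control. The average was highest in LDKO, the array with the lowest Plin2, Plin4, Plin5, Cidec and Fitm2. Against the Irs1/2:FoxO1-flox control, 8 of the 13 markers were higher in LDKO and 5 lower, with a median of 0.09. Leptin (Lep) had the largest of those differences, 1.62. In LDKO against its control 12 of 13 adipocyte markers were higher, with a median of 0.08; the list holds Plin1 and Cidea but none of the 8 genes. Macrophage markers, of cells that also express Plin2, averaged 7.88 in LDKO and 8.16 in its control, with 14 of 19 lower, and 7.76 in LTKO and 8.04 in its control, with 16 of 19 lower. All 19 were at or above the median gene in every array. Plin2 and most macrophage markers were both lower in LDKO than in its control. In LTKO, Plin2 was higher than in its control while most macrophage markers were lower. Of the 17 muscle markers, 12 reached the median gene in the Irs1/2-flox control and 8 or 9 in the other arrays. Of the 12 past the filter, 11 were lower in LDKO than in that control. All 12 passed through that control, some of them through it alone, so the filter favoured this direction. Of the 12 hepatocyte markers, 8 reached the median gene in LTKO and 3 elsewhere, and of the 14 testis and epididymis markers 9 did in LTKO and 1 elsewhere. The hepatocyte list includes Cyp2e1, which was between 13.04 and 13.14 in all 4 arrays and is also expressed in fat. Odf1, on the testis and epididymis list, was between 10.31 and 10.66 in all 4 arrays. The part of adipocyte, macrophage, muscle, mesothelial, liver and epididymal RNA in the values of the 8 genes was not tested.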

How the data were processed

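The authors deposited 1 log2 signal for each probe set and array. They used Affymetrix Expression Console and RMA, per the submitters' processing notes, a method that corrects background, equalizes quantiles between arrays and summarizes probes. Tool versions and a build were not given in the sources used here. RMA compresses the differences of dim probe sets. Of 41345 probe sets, 23521 carried 1 gene symbol, 1814 several, which were left out, and 16010 were unnamed here. RefSeq's GRCm38.p6 annotation, matched by gene identifier for current symbols, held 23328 of the probe sets with 1 symbol and gave 22180 genes.

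Differences were taken between single arrays, with no test. A gene was called 2-fold apart at a log2 difference of 1 or more, and had to reach the median gene, 5.15, in at least 1 array compared. Each list was described by its counts and median. Named genes were the 8 members, at most 4 genes of each other list and comparison by size of difference, and the 3 nearest patterns of members with a range of at least 0.5; Hilpda, Rxra, Ppard, Myh4, Myl1, Alb, Cyp2e1, Adipoq and Fabp4, the 4-array values of Pdk4 and Ucp3, and the neighbours of Plin5 were added after their values were seen. The members, lists and rules were chosen with earlier results of these data known. RefSeq promoter windows of GRCm38.p6 were matched by symbol for all 8 members; protein sequences were not used here. The steps were tested on simulated data. Alternatives were 1.5-fold and 3-fold thresholds, no filter, a filter set at percentile 70, averaging of all probe sets of a gene, quantile normalization again, a loess curve with a span of 0.3 removed, the mean of both controls and the other control. The software was Python 3.11.15 (numpy 2.4.6, statsmodels 0.14.6, pandas 2.3.3, matplotlib 3.10.9).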

Additional observations from a re-analysis of the deposited data

Results flagged for a closer look

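Plin2, Plin3 and Plin4 differed from the control of the same line in opposite directions in LDKO and in LTKO. Both sizes were above the median distance between the 2 control arrays, 0.16. The share of all genes that met both conditions was not counted. The signs of Plin2 and Plin4, at any size, were seen in 24.8% of genes, and those of Plin3 in 25%. The LTKO difference minus the LDKO difference was 0.75 for Plin2, −0.48 for Plin3 and 0.48 for Plin4. With 1 array per group these differences between the lines were not tested. Each holds the difference between the 2 controls, which was −0.25 for Plin2, 0.50 for Plin3 and −0.13 for Plin4. Without the controls, LTKO minus LDKO was 0.49 for Plin2, 0.02 for Plin3 and 0.35 for Plin4. Of all genes, 13% had effects at least 1.5-fold apart, and of the 8 genes Plin2 was the 1 that did.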

How the results depend on the processing

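At 1.5-fold, 1 gene was apart in LTKO minus LDKO (Plin5) and 1 in the difference of effects (Plin2); the lower threshold gives both. Under the other alternatives the counts of 2-fold genes stayed at 0 in every comparison, and each median over the 8 genes moved by less than 0.16, the median distance between the 2 controls. The LTKO median changed sign, to −0.01, without Plin2, and the median between the controls was 0.03 without Plin3. Of 152 differences of single genes under the alternatives, 134 moved by less than 0.16 and 14 changed sign, 10 of them with the other control or the mean of both controls as reference. The signs of Plin3 and Bscl2 in LDKO and LTKO were among these. With the other control as reference, 12 of 16 differences moved by 0.16 or more and 6 changed sign. The mean of all probe sets gave 40 of the 152 differences. It could move those of Fitm1 alone, because the other 7 genes had 1 probe set. The number of genes lowest in LDKO was 5 under quantile normalization again and with the mean of all probe sets. It was 5 without the LTKO array and 7 without the Irs1/2-flox control array, which were chosen after seeing the data. Leaving out an array other than LDKO cannot lower that number. No paired analysis was possible because each group had 1 array, and for the same reason no array could be left out of a group. Fitm1 is limited by its low signal and Cidec by its place near the top of the scale.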

Other observations

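Plin4, Plin5 and Plin3 lie on mouse chromosome 17, with Plin4 next to Plin5 and 9 genes between Plin5 and Plin3, and all 9 were measured. Lrg1, the neighbour of Plin5, which encodes a secreted glycoprotein, was 6.96 in LDKO and 6.98 in the Irs1/2-flox control, and 7.68 in LTKO and 7.68 in the Irs1/2:FoxO1-flox control. Both arrays of the Irs1/2:FoxO1-flox line were thus above both arrays of the Irs1/2-flox line, as they were for Plin5, Plin3, Cidec, Fitm2 and Bscl2. Sema6b, the next gene, was 5.80 in LDKO and 6.09 in the Irs1/2-flox control, and 6.10 in LTKO and 6.08 in the Irs1/2:FoxO1-flox control. Its low value was in LDKO, as for Plin4 and for 37.4% of all genes past the filter. Fem1a, nearer to Plin3, was 6.39 in LDKO and 6.05 in the Irs1/2-flox control, and 6.08 in LTKO and 5.90 in the Irs1/2:FoxO1-flox control, an order unlike that of Plin3. Lrg1, Sema6b and Fem1a were named out of the 9 after their values were seen. How often the order of Lrg1 was seen over all genes was not counted.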
